A study of Mus musculus with 10 samples.

Results

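The genes described here are 6 surface ligands through which antigen-presenting cells raise or restrain the response of T cells: Cd80, Cd86, Cd40, Cd274 (PD-L1), Pdcd1lg2 (PD-L2) and Icosl. They were taken by symbol, from a mouse annotation of the identifiers, out of 43432 identifiers in the count tables, and all 6 were among the 19281 genes kept for testing. The study sorted tuft cells, chemosensory epithelial cells that make interleukin 25, from small intestine (SI) and thymus, with other SI epithelial cells as the reference. Every animal was a naive male of 12 weeks of the strain C57BL6.Il25(Flare25/Flare25), in which both alleles of Il25 carry the Flare25 fluorescent reporter, and 1 mouse gave each library. All cells were DAPI-, CD45- and EPCAM+. SI tuft cells (n = 3, replicates 2 to 4, 35000 to 36000 cells) and thymic tuft cells (n = 4, replicates 1 to 4, 1350 to 1900 cells) were Flare25+, and SI epithelium (n = 3, replicates 1 to 3, 52000 to 57000 cells) was Flare25-. A tuft cell here is therefore a cell in which the reporter was on, and the tissues were released differently, the SI with DTT and EDTA and the thymus with enzymes and a Percoll step. The thymus has no reporter-negative group, so organ and cell type differ together between thymic tuft cells and SI epithelium.

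T cells need a second signal beside the antigen. CD80 and CD86 give it through CD28 and withdraw it through CTLA-4, CD40 receives a signal from CD40 ligand on T cells and acts through TRAF proteins and NF-kappaB, and ICOS ligand engages ICOS. PD-L1 and PD-L2 restrain T cells through PD-1, and PD-L1 is a classic target of interferon gamma. In the thymic medulla, CD80, CD86 and CD40 on epithelial and dendritic cells are known for their part in negative selection and in the making of regulatory T cells.

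Libraries held 38659882 to 73574745 counts, so that 3 counts in 1 library were worth 0.0433 to 0.0817 CPM (the usual scaling of counts to the library total, with TMM factors). Tuft cell markers (10 genes, Trpm5 and Dclk1 among them) summed to 12920 to 16282 CPM in SI tuft, 4404 to 5462 in thymic tuft and 125 to 228 in SI epithelium libraries. Enterocyte markers (8 genes) summed to 27178 to 29725 CPM in SI tuft, 13706 to 15190 in SI epithelium and 223 to 421 in thymic tuft libraries, so their sum was higher in SI tuft than in SI epithelium. Mitochondrial genes took 24.1 to 33.5% of counts in SI tuft, 18.6 to 23.7% in SI epithelium and 4.38 to 5.97% in thymic tuft libraries. Several medullary thymic epithelium genes were also high in the thymic tuft libraries: Aire had a mean of 224.5 CPM, Fezf2 285 and Krt5 636, against at most 0.211, 0.109 and 0.389 CPM in any SI tuft library. Of 9 tested, 7 were higher and 1 lower than in SI tuft (edgeR adjusted p below 0.05), beside 28.5% and 23.1% of all genes. Cldn3 was at 70.4 against 381 CPM and Spib at 1166 against 1053. Of 6 cortical thymic epithelium genes, 3 were higher and 1 lower. Foxn1 was at 169 against 0.0081 CPM, Prss16 at 24.1 against 1.70 and Psmb11 at 2.40 against 0.0567. Ccl25 was at 248 against 409 CPM, Ly75 at 35.6 against 28.1 and Dll4 at 23.1 against 7.86. In bulk RNA of this kind, fewer cells of a type and less RNA per cell cannot be told apart. SI epithelium libraries also held counts of genes that were otherwise thymic, at 0.531 to 0.537% of the counts of 1 thymic library each (epithelium 1 with thymic 3, 2 with 2 and 3 with 1, by the median ratio), and this bears on the low values of 4 of the ligands below. For the leading thymic library, least squares gave 0.442 to 0.526% with observed weights. With fitted weights it gave 0.287 to 0.620%, and epithelium 2 went with thymic 3. In turn, the partner thymic libraries held genes that were otherwise of SI epithelium, at 0.860 to 0.959% of their counts there.

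The sequences just before the annotated start are shown because the NF-kappaB and interferon pathways act on several of these genes. Upstream windows from RefSeq (GRCm38.p6, strand +) were at hand for 4 of the 6 genes, and those of Cd274, Pdcd1lg2 and Icosl are printed up to the start of the annotated transcripts. Capitals mark matches of an NF-kappaB consensus (Pdcd1lg2 and Icosl) or of a short interferon regulatory factor (IRF) element (Cd274).
Cd274, chr19:29367188-29367437: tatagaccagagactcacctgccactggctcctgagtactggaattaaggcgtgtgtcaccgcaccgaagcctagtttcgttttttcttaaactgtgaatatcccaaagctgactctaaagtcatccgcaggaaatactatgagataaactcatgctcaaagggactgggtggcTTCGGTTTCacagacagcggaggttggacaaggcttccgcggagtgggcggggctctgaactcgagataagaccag
Pdcd1lg2, chr19:29410669-29410918: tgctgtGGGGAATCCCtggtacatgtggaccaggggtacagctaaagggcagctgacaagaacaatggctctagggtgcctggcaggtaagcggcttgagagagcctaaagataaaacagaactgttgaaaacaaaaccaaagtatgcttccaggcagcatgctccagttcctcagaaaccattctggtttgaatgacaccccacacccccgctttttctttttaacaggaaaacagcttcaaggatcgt
Icosl, chr10:78069118-78069301: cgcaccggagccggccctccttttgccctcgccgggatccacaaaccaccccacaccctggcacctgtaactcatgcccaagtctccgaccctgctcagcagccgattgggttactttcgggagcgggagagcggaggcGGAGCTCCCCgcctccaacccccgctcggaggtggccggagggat

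The Icosl window was rich in G and C (67.9%), against 50.4% for Cd274 and 48.4% for Pdcd1lg2. In all, 5 motifs were searched on both strands of the 250 bases before each RefSeq start, which for Cd80 and Icosl reach into annotated transcript that is not printed. The NF-kappaB consensus was found in Pdcd1lg2 (strand +, 244 bases before the start) and Icosl (strand -, 111 bases before), and in 7.25% of 32851 windows. The long interferon-stimulated response element (the short form given next, with an A added at its end) was found in none of the 4 ligands and in 2.98% of windows. The short form, GAAANNGAA, was added after the long one had no match; it was found in Cd274 (strand -, 76 bases before) and in 7.13% of windows. The other two motifs, the GAS element TTCNNNGAA (7.02% of windows) and the TATA box TATAAA (12.4%), had no match in the 4. These matches are letters in a window and were not tied to any measured binding.

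Thymic tuft libraries held RNA of all 6 ligands, and SI tuft libraries mainly that of Cd274 and Icosl. Whether other cells in the sorted gates carried part of it was not tested. Thymic tuft libraries were higher than SI tuft libraries in 6 of 6 ligands (edgeR quasi-likelihood test, adjusted p below 0.05), where 28.5% of all genes tested were called higher and 23.1% lower. They were also higher than SI epithelium in 6 of 6, where 28.6% of all genes were called higher and 22.3% lower. The mitochondrial share moved with both thymic comparisons, and its part in the ligand differences was not tested. In SI tuft against SI epithelium, 1 ligand (Cd274) was called higher and 3 (Cd80, Cd40, Icosl) lower, where 10.9% of all genes were called higher and 11.4% lower. The 3 lower calls did not hold once the counts shared with thymic libraries were taken off, as given below. For Cd80 and Cd40 this followed from the subtraction itself, which left SI epithelium with few or 0 counts. For Icosl the log2 value hardly moved, from -1.07 to between -1.03 and -1.01. Its edgeR adjusted p passed the threshold, from 0.0449 to between 0.0609 and 0.0687. The median log2 fold change of the 6 ligands was 6.11 in thymic against SI tuft, beside 0.12 over all genes tested. It was 7.24 in thymic tuft against SI epithelium, beside 0.15, and -0.26 in SI tuft against SI epithelium, beside -0.10. None of these medians moved when genes at 0 in a group were set at their lower bound.

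**Figure D1:**
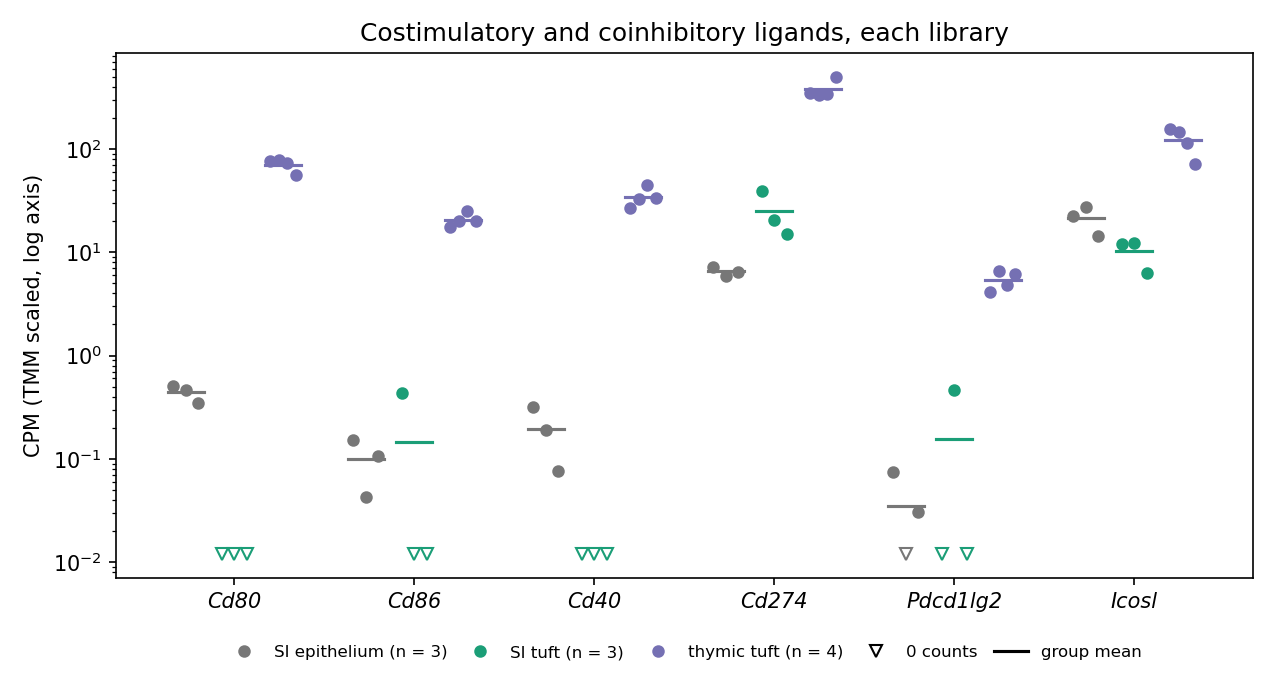
CPM of each ligand in each of the 10 libraries, on a log axis; points are libraries, bars are group means and open triangles near the axis are libraries with 0 counts. All thymic tuft points lie above all SI points for each ligand, and Cd80 and Cd40 have 0 counts in the 3 SI tuft libraries. The share of all genes separated in this way is not given here, so the separation is description only.

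Cd80 encodes B7-1, which binds CTLA-4 more tightly than CD28. It had 4636, 4123, 5033 and 2951 counts in thymic tuft replicates 1 to 4, which is 76.2, 77.7, 72.7 and 56.1 CPM. SI tuft libraries had 0 counts in 3 of 3, and SI epithelium replicates 1 to 3 had 27, 22 and 23 counts (0.508, 0.467 and 0.348 CPM). The 3 groups did not overlap, and thymic replicate 4 was the lowest of its group. Against the level that 3 counts over the whole SI tuft group would give (0.0259 CPM), the thymic mean of 70.7 ± 9.95 CPM (SD, n = 4) was at least 2728-fold higher (edgeR adjusted p = 2.14e-08). Against SI epithelium (0.441 ± 0.0831 CPM, n = 3) it was 160-fold higher, a log2 fold change of 7.32 ± 0.33 (SE, edgeR adjusted p = 6.67e-08). With the thymic share of the SI epithelium counts taken off by 3 estimates (below), that log2 value was 12.3 to 14.9. SI tuft libraries were at least 17.0-fold lower than SI epithelium (edgeR adjusted p = 3.99e-05). With the thymic share taken off, that call was lost by each of the 3 estimates (log2 0 or -2.57). The subtraction left SI epithelium with few or 0 counts, so this loss follows from it and is no separate test.

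Cd86 encodes B7-2, the partner ligand of the same receptors. Thymic replicates 1 to 4 had 1059, 1069, 1752 and 1057 counts, or 17.4, 20.1, 25.3 and 20.1 CPM. SI tuft replicates 2 to 4 had 18, 0 and 0 counts, and SI epithelium 8, 2 and 7. Among the SI libraries the tuft and epithelium groups overlapped, and a single SI tuft library held all of that group's counts. Thymic tuft (20.7 ± 3.30 CPM, n = 4) was 142-fold higher than SI tuft (log2 7.09 ± 1.13, SE, edgeR adjusted p = 0.000247) and 208-fold higher than SI epithelium (log2 7.65 ± 1.15, edgeR adjusted p = 0.000163). The former was 13.10 on the log2 scale without SI tuft replicate 2, which leaves SI tuft at 0, and the latter was 11.3 to 13.1 with the thymic share taken off. SI tuft and SI epithelium were not called different (log2 0.56 ± 1.07, edgeR adjusted p = 0.760). Without SI tuft replicate 2 this value turned to -5.46 (edgeR adjusted p = 0.0188). The latter rests on 17 SI epithelium counts, where 20.0 to 32.5 were expected from the thymic share (below).

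Cd80 exceeded Cd86 in every thymic library, by 4.38, 3.86, 2.87 and 2.79 counts to 1 in replicates 1 to 4. In SI epithelium the same ratio of counts was 3.38, 11.0 and 3.29 on totals of 72 and 17 counts. Those SI epithelium counts were about the number expected from the thymic libraries (below), which would carry the thymic ratio with them, so a like ratio there says nothing of the epithelium's own. The log2 ratio differed by -0.40 between thymic tuft and SI epithelium (exact two-sided permutation test, p = 0.571, adjusted p = 0.571 over 6 ratio comparisons). That sign turned with several settings, and the ratio in SI tuft rests on counts at or near 0. The smallest p these tests can give is 0.0571 for 3 against 4 libraries and 0.1 for 3 against 3.

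Cd40 encodes the receptor for CD40 ligand, which licenses antigen-presenting cells and drives medullary epithelial growth. Thymic replicates 1 to 4 had 1618, 1751, 3103 and 1782 counts (26.6, 33.0, 44.8 and 33.9 CPM). All 3 SI tuft libraries had 0 counts, and SI epithelium replicates 1 to 3 had 17, 9 and 5. The groups did not overlap, and thymic replicate 3 was the highest library. The thymic mean of 34.6 ± 7.57 CPM (SD, n = 4) was at least 1335-fold above SI tuft (edgeR adjusted p = 8.45e-07) and 177-fold above SI epithelium (log2 7.47 ± 0.58, edgeR adjusted p = 2.91e-06). With the thymic share taken off, the latter log2 value was 11.3 to 13.9. SI tuft was at least 7.55-fold lower than SI epithelium (edgeR adjusted p = 0.00324). This call too was lost by each estimate with the thymic share taken off (log2 0 or -2.57), again because few or 0 counts were left.

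Cd274, the more widely expressed of the PD-1 ligands, was the most abundant of the 6 genes in both kinds of tuft cell. SI epithelium replicates 1 to 3 had 7.25, 5.92 and 6.42 CPM, SI tuft replicates 2 to 4 had 39.0, 20.7 and 15.0, and thymic replicates 1 to 4 had 348, 330, 340 and 501. The groups rose in that order without overlap; SI tuft replicate 2 and thymic replicate 4 were the highest of their groups. SI tuft (24.9 ± 12.6 CPM, SD, n = 3) was 3.82-fold higher than SI epithelium (6.53 ± 0.669, n = 3), a log2 fold change of 1.93 ± 0.31 (SE, edgeR adjusted p = 0.000728). Thymic tuft (380 ± 80.7, n = 4) was 15.2-fold higher than SI tuft (log2 3.93 ± 0.32, edgeR adjusted p = 1.11e-06). Against SI epithelium it was 58.2-fold higher (log2 5.86 ± 0.36, edgeR adjusted p = 1.09e-07). Cd274 shares 511 exonic bases with an antisense gene (AC119228.1) on the other strand; the library kits did not mark strand, so reads of the pair cannot be told apart there.

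Pdcd1lg2 encodes the second PD-1 ligand and lies beside Cd274 on chromosome 19. Thymic replicates 1 to 4 had 251, 346, 333 and 324 counts, or 4.13, 6.52, 4.81 and 6.16 CPM. SI tuft replicates 2 to 4 had 0, 17 and 0 counts, and SI epithelium replicates 1 to 3 had 4, 0 and 2. The thymic libraries stood apart from all SI libraries, and the SI groups overlapped. Thymic tuft (5.40 ± 1.12 CPM, n = 4) was higher than SI tuft (log2 5.12 ± 1.48, SE, edgeR adjusted p = 0.0124) and was also above SI epithelium (log2 7.15 ± 1.66, edgeR adjusted p = 0.00351), where 6 counts in all leave the fold loose. The difference from SI tuft rests on the 17 counts of SI tuft replicate 3 and was 11.17 on the log2 scale without it, 4.52 without replicate 2 and 4.53 without replicate 4. That from SI epithelium was 8.14 without SI epithelium replicate 1 and 8.11 to 9.41 with the thymic share taken off. SI tuft and SI epithelium were not called different (log2 2.03 ± 1.46, edgeR adjusted p = 0.365); without SI tuft replicate 3 the value was -4.03 (edgeR adjusted p = 0.194).

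Cd274 outnumbered Pdcd1lg2 in the thymic libraries by 84.4, 50.7, 70.8 and 81.3 counts to 1 in replicates 1 to 4. The log2 ratio was 6.14 ± 0.33 there (SD, n = 4) and 7.65 ± 1.37 in SI epithelium (n = 3). The difference of -1.52 had p = 0.0571 in the exact two-sided permutation test, the smallest it can give, and adjusted p = 0.171. It rests on 4, 0 and 2 Pdcd1lg2 counts in SI epithelium.

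Icosl, the ligand of ICOS, was the only ligand whose mean was higher in SI epithelium than in SI tuft at more than 1 CPM. SI epithelium replicates 1 to 3 had 22.4, 27.4 and 14.5 CPM, SI tuft replicates 2 to 4 had 11.9, 12.4 and 6.28, and thymic replicates 1 to 4 had 156, 148, 114 and 70.9. The groups did not overlap, although the lowest SI epithelium library and the highest SI tuft library lay close together. Thymic tuft (122 ± 38.7 CPM, SD, n = 4) was 12.0-fold higher than SI tuft (10.2 ± 3.40, n = 3; log2 3.58 ± 0.37, SE, edgeR adjusted p = 7.28e-06). It was 5.70-fold higher than SI epithelium (21.4 ± 6.55, n = 3; log2 2.51 ± 0.35, edgeR adjusted p = 8.62e-05). SI epithelium was 2.10-fold higher than SI tuft at the edge of the threshold (log2 -1.07 ± 0.35, edgeR adjusted p = 0.0449). That call was lost without SI epithelium replicate 1 (adjusted p = 0.117) or 2 (0.174), SI tuft replicate 2 (0.0728), 3 (0.0647) or 4 (0.155), or thymic replicate 3 (0.0558), each by edgeR. Over all 21 alternatives, 11 kept the call and 10 lost it.

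**Figure D2:**
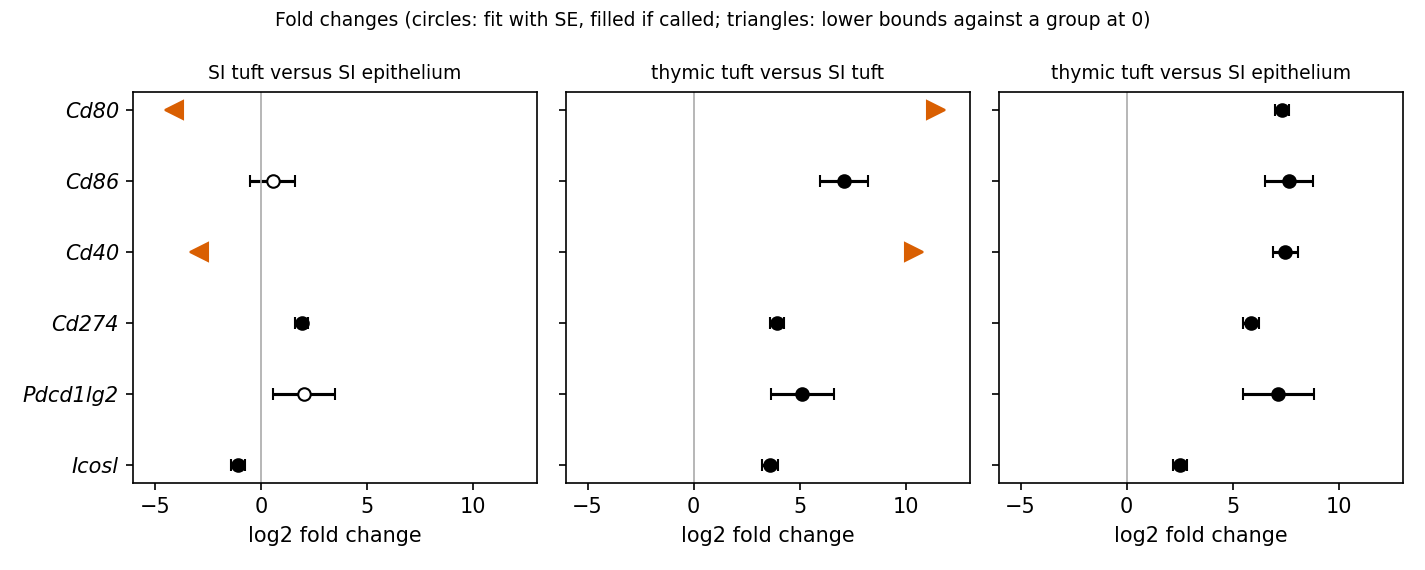
Log2 fold change of each ligand in the 3 comparisons. Circles are edgeR estimates, with bars for the SE derived from the test statistic, and are filled where the adjusted p was below 0.05. Triangles are lower bounds against a group with 0 counts. All 6 ligands lie to the right of 0 in both thymic comparisons, while SI tuft against SI epithelium is mixed.

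Levels of different genes were compared per kb of exon. In thymic tuft cells the order was Cd274 (105 CPM per kb), Icosl (26.4), Cd80 (19.1), Cd40 (10.2), Cd86 (5.67) and Pdcd1lg2 (2.76). Icosl and Cd80 overlapped between libraries and no other neighbours did. In SI tuft cells Cd274 (6.88 CPM per kb) stood above Icosl (2.21), and the remaining 4 genes were at 0.0786 or less. In SI epithelium the order of the leading pair was the other way round, Icosl at 4.64 and Cd274 at 1.80 CPM per kb, without overlap. Of the summed level of the 6 genes, Cd274 took 62.1% in thymic tuft, 74.7% in SI tuft and 27.1% in SI epithelium.

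The counts in SI epithelium were set beside those expected from the share of thymic counts in the same libraries. The share was estimated in 3 ways, all tried after the data had been seen and all without the 6 ligands, and the range over the 3 is given. Cd80 had 72 counts over the 3 SI epithelium libraries, where 71.5 to 111 were expected. Cd40 had 31, where 33.2 to 54.5 were expected, Cd86 had 17, where 20.0 to 32.5 were expected, and Pdcd1lg2 had 6, where 4.82 to 7.81 were expected. For Cd80, Cd40 and Cd86, the counts lay inside the 95% Poisson range in 3 of 3 libraries by 2 of the ways and in 2 of 3 libraries by the other, where the remaining library was below it. Counts of these 4 genes in SI epithelium were thus no more than the thymic share would give, or within its counting error. Cd274 had 1088 counts, of which 30.3 to 51.8% were expected from the share, and Icosl 3437, of which 3.802 to 5.64% were. Each subtraction also took the share of SI epithelium counts off the partner thymic libraries. With both shares taken off, Cd274 stayed called higher in SI tuft than in SI epithelium (log2 2.44 to 2.97) and no ligand was called lower, by any of the 3 ways. All 6 ligands stayed higher in thymic tuft than in SI tuft and in SI epithelium by each. For Cd80, Cd40, Cd86 and Pdcd1lg2 the subtraction left SI epithelium with few or 0 counts, so those larger log2 values depend on the fit and are no measure of size. The lost lower calls of Cd80 and Cd40 follow from the same step and are no separate test.

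**Figure D3:**
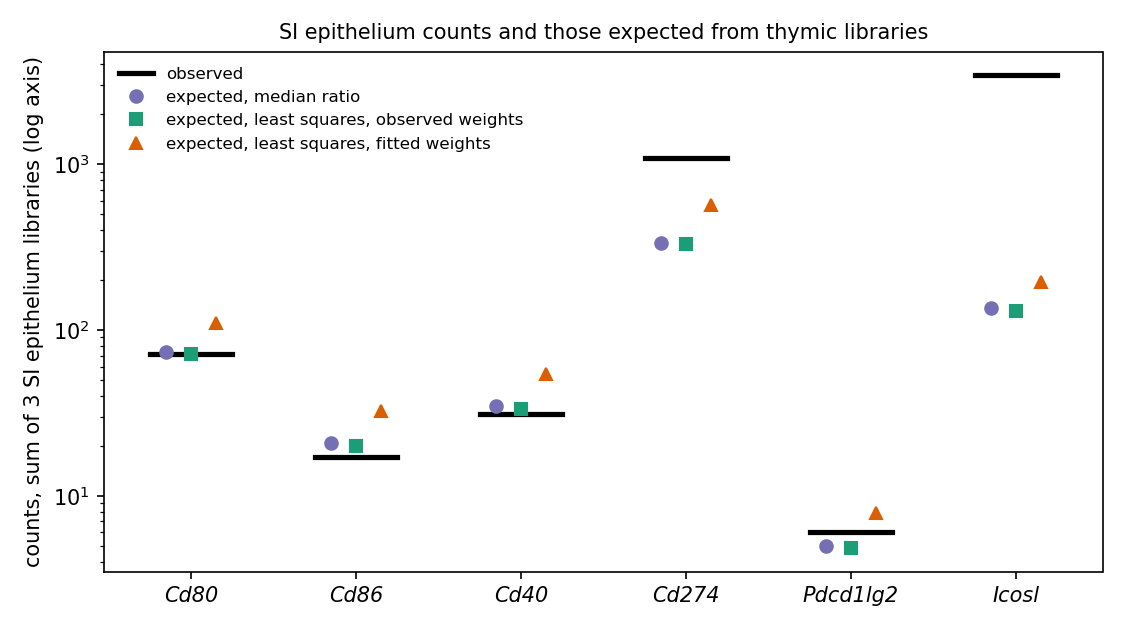
Counts of each ligand summed over the 3 SI epithelium libraries (black bars) with the counts expected from the thymic share by 3 estimates (symbols), on a log axis. Cd274 and Icosl lie above all 3 estimates, while Cd80, Cd86, Cd40 and Pdcd1lg2 lie among or below them.

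Cells other than tuft cells could also carry these ligands, and their markers were read in the same libraries. Dendritic cell markers (10 genes) summed to 47.9 to 68.8 CPM in thymic tuft and 4.30 to 7.84 in SI tuft libraries, most of it Ccr7 (28.2 CPM) and Zbtb46 (21.1, against 1.03 in SI tuft). Flt3 (1.48 CPM), Xcr1 (0.415) and Batf3 (0.921) were also above SI tuft, where Flt3 and Xcr1 had 0 counts and Batf3 0.0176 CPM. Itgax was at 0.0129 CPM in thymic tuft and 0.921 in SI tuft, and Clec9a had 0 counts in the thymic libraries. Macrophage markers (10 genes) summed to 245 to 307 CPM in thymic and 134 to 159 in SI tuft libraries, and Lyz2 made up 183 CPM of the thymic mean. The SI tuft sum was mostly Mertk, at 116 CPM against 3.74 in thymic tuft. Of 9 macrophage markers tested, 5 were called higher and 1 lower in thymic than in SI tuft, beside 28.5% and 23.1% of all genes. B cell markers (7 genes) summed to 25.6 to 41.5 and 1.80 to 4.44 CPM, mostly Cd79b (25.1 CPM in thymic tuft), and Fcrla was at 0. T cell markers (11 genes) summed to 10.1 to 36.8 and 24.6 to 35.4 CPM. Thymic medullary epithelium genes summed to 2987 to 3178 CPM in thymic tuft and 1449 to 1572 in SI tuft libraries, the latter nearly all Spib and Cldn3. The part of any of these in the ligand levels was not tested.

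Around the 6 ligands, the pathway genes moved unevenly between thymic and SI tuft cells. Of 19 genes of CD40 signalling and NF-kappaB, 17 were higher and 1 lower in thymic tuft (median log2 1.64), beside 28.5% and 23.1% of all genes. Rel, an NF-kappaB subunit, rose from 5.96 ± 2.10 to 101 ± 10.8 CPM (log2 4.08, edgeR adjusted p = 1.94e-07). Traf1, an adaptor induced by NF-kappaB, rose from 2.93 ± 0.9495 to 61.3 ± 17.3 CPM, and the inhibitor Nfkbie from 0.489 ± 0.172 to 90.7 ± 56.2. Chuk, the IKK alpha kinase, fell from 98.0 ± 17.6 to 46.6 ± 10.1 CPM. In SI tuft against SI epithelium 4 of the 19 were higher and 5 lower, beside 10.9% and 11.4% of all genes, with Tnfaip3 higher (log2 1.22) and Nfkb2 lower (log2 -1.07).

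Of 12 genes of interferon gamma signalling and PD-L1 stability, 3 were higher and 2 lower in thymic than in SI tuft, shares near those of all genes (28.5% and 23.1%), with a median log2 of 0.11, next to 0.12 over all genes. With the counts shared between libraries taken off, 3 were higher and 1 lower. Stat3 rose from 113 ± 17.1 to 605 ± 94.3 CPM and Socs1, a feedback inhibitor, from 1.60 ± 0.550 to 14.7 ± 2.06. Ifngr1, a chain of the interferon gamma receptor, fell from 62.7 ± 3.81 to 23.9 ± 5.87 CPM, and Irf1, an interferon-induced factor, from 135 ± 29.5 to 94.8 ± 10.6. In SI tuft against SI epithelium, Ifngr1 fell (log2 -1.11).

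Among 12 other TNF-family and adhesion ligands 11 were tested, and 8 were higher and 1 lower in thymic tuft (median log2 5.05). Icam1, which binds LFA-1 on T cells, rose from 0.269 ± 0.179 to 185 ± 38.4 CPM, and Tnfsf9 (4-1BB ligand) from 4.19 ± 3.24 to 30.7 ± 5.95. Cd70, the ligand of CD27, was at 0 in SI tuft and at least 151-fold higher in thymic tuft (3.92 CPM). Cd24a fell from 6722 ± 1120 to 1483 ± 484 CPM. Of 13 other inhibitory ligands, 3 were higher, 6 lower and 4 not called in thymic tuft (median log2 -0.20), beside 28.5% higher and 23.1% lower over all genes. Ceacam1 fell from 1179 ± 196 to 222 ± 25.4 CPM, Btnl2 from 219 ± 31.7 to 16.4 ± 12.1 and Cd200 from 64.1 ± 9.07 to 7.29 ± 3.33, while Pvr rose from 16.8 ± 3.53 to 35.4 ± 5.26. SI epithelium held 1176, 162, 36.3 and 30.6 CPM of these genes, in the same order. Between SI tuft and SI epithelium, 1 of the 13 was lower and 12 were not called, beside 10.9% higher and 11.4% lower over all genes.

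All 10 MHC class II genes, which carry the first signal, were higher in thymic tuft (median log2 7.57), among them H2-Aa, from 1.82 ± 1.73 to 1274 ± 149 CPM. Of 16 T cell receptors for these ligands 12 were tested and 4 were higher, a share near the 28.5% of all genes, led by Tnfrsf9 (23.3 ± 14.4 CPM in thymic tuft against 0.657 ± 0.594). Cd40lg had 0 CPM in both kinds of tuft cell.

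**Figure D4:**
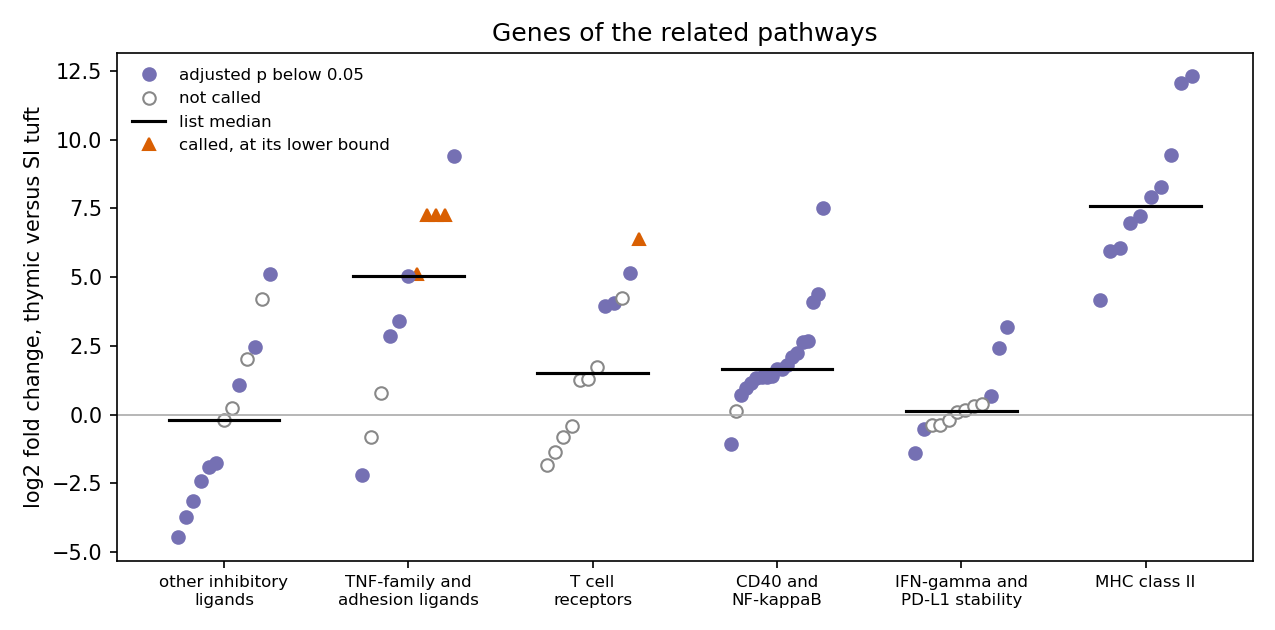
Log2 fold change of thymic against SI tuft for the tested genes of 6 related lists; filled circles passed the adjusted p of 0.05, open ones did not, triangles are called genes at the lower bound because SI tuft had 0 counts, and bars are list medians. MHC class II genes all lie above 0, and the other inhibitory ligands lie on both sides.

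By pattern over the 10 libraries, the genes most like Cd274 were Ptgs2 (Pearson r = 0.995 on log2 CPM), Cadps2 (0.994) and Atp11a (0.994), of 12291 protein-coding genes compared. Ptgs2, a prostaglandin synthase, had 5.19, 23.6 and 389 CPM in SI epithelium, SI tuft and thymic tuft, against 6.53, 24.9 and 380 for Cd274. Those most like Cd80 were Pax1, Galnt17 and Aif1l, and those most like Cd40 were Skint2, Abca12 and Dapl1. Cd86 was most like Pcolce2, Ctnnd2 and Rd3, Pdcd1lg2 most like Cebpa, Steap4 and Lrrfip1, and Icosl most like Fam220a (r = 0.993), Fam117a and Ache. Such likeness was common, since 1172 genes had r above 0.95 with Cd80, 354 with Cd274 and 325 with Icosl. The libraries share organ, depth and the cross-library counts, so these values describe the groups more than the genes.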

How the data were processed

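Poly(A) RNA from sorted cells was amplified and made into libraries without strand, per the labels' protocols. The authors deposited 1 table of raw counts per library, with Ensembl identifiers. STAR, GRCm38 and DESeq2 are named in the submitters' processing notes; versions are not given in the sources used here. Symbols and exon lengths came from GENCODE M21 (GRCm38); 884 of 43432 identifiers had no symbol.

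Counts were tested with edgeR 4.0.16 (R 4.3.3; TMM, filterByExpr with a minimum count of 10, quasi-likelihood test) over all 10 libraries, with Benjamini-Hochberg adjustment over 19281 genes and a threshold of 0.05. The SE of each log2 fold change was derived from the test, as its absolute value over the square root of the F statistic. It restates the p-value and is loose for genes near 0 counts. DESeq2 1.42.0 was an alternative. CPM used TMM-scaled library totals; precision follows from 38659882 to 73574745 counts a library, and floors of 3 counts cover counting error only. Each library came from 1 mouse. Ratios were compared by exact permutation over libraries after adding 0.5 to each count. The fit was checked on simulated counts.

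Thymic counts in SI epithelium libraries were estimated from genes with at least 2000 thymic and at most 2 SI tuft counts. The reverse share, SI epithelium counts in the partner thymic library, was the median ratio over 11 genes. These were high in SI epithelium and low in SI tuft and thymic replicate 4. Each subtraction took off both shares. In all, 3 estimators were run on these data one after another: least squares with weights from observed counts, the same with weights from fitted counts, and the median ratio to 1 partner library. All were chosen after seeing the data, and the third was run after the ligands' values under the first and second were known. With those values known, they were compared on simulated data in which 0, 10 or 30% of the genes were also expressed in epithelium. Each simulated SI epithelium library took its thymic counts from 1 thymic library, in the pairing found by the median ratio. The mean error of the share was 3.08% for the median ratio, 6.25% for observed weights and 208% for fitted weights. A source in 1 thymic library is what the median ratio assumes, so this comparison favoured it and cannot rank the 3 on other terms. The median ratio was taken as the reference on these errors, and the ranges of expected counts and subtracted values cover all 3.

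The 6 ligands and the lists were chosen with earlier results of these data known. List members named are up to 4 called genes each way with the largest change and at least 5 CPM; Cd70, at 3.92 CPM, Cd40lg and the marker genes named were picked after their values were seen. The values of 1 gene of the interferon list are not reported here.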

Additional observations from a re-analysis of the deposited data

Results flagged for a closer look

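Of 42 genes examined in the 4 thymic libraries, 6 had 1 library far from the other 3 (Dixon's test at 95%), where chance alone flags about 1 in 20 groups. Cd274 was at 501 CPM in thymic replicate 4 and at 330 to 348 in the others. In the same library Tnfaip3 was at 257 CPM (others 186 to 198) and Cmtm6, a stabiliser of PD-L1 protein, at 90.4 (others 150.2 to 157). In thymic replicate 3, Tnfsf15 was at 16.3 CPM (others 4.54 to 6.37) and Traf5 at 54.3 (others 4.98 to 12.8). H2-Ab1 was at 1458 CPM in thymic replicate 1 and at 1907 to 1935 in the others.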

How the results depend on the processing

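The 6 of 6 ligands higher in both thymic comparisons stayed called under every alternative run: other library scaling (upper quartile, or DESeq2 size factors), a looser or a stricter filter on low counts, the Wald test of DESeq2, fits of 2 groups alone, thinned counts, the replicate block, the 3 subtractions and leaving out each library. Cd274 stayed higher in SI tuft than in SI epithelium under the same settings (log2 1.45 to 2.97). Of 375 ligand values under alternatives, 357 kept their direction and call, 16 lost the call and 2 changed sign. With the thymic share subtracted, 0 ligands were lower in SI tuft than in SI epithelium by all 3 estimates (edgeR), against 3 as deposited. Cd80 and Cd40 then had log2 values of 0 by 2 estimates and -2.57 each by observed weights, where edgeR adjusted p was 0.312 and 0.315. Both had few or 0 counts left in SI epithelium, so their lost calls follow from the subtraction. The fit of only SI tuft and SI epithelium dropped Cd40, Cd86 and Pdcd1lg2 as too low to test. Icosl with the share subtracted had log2 -1.03, -1.03 and -1.01, with adjusted p from 0.0609 to 0.0687. Leaving out each library in turn gave log2 -5.46 to 1.12 for Cd86 and -4.03 to 3.03 for Pdcd1lg2 in SI tuft against SI epithelium. The lowest Cd86 value was without SI tuft replicate 2 and the lowest Pdcd1lg2 value without replicate 3. Each of these libraries held all SI tuft counts of its gene. The log2 difference of the Cd80 to Cd86 ratio between thymic tuft and SI epithelium, -0.40, turned to 0.28 with 5 added to each count, to 2.30, 1.24 and 1.77 with the share subtracted by median ratio, observed and fitted weights, and to 0.10 without SI epithelium replicate 2 (from -0.66 to 0.10 over the libraries left out); that of Cd274 to Pdcd1lg2, -1.52, turned to 0.38 with 5 added. These turns rest on SI epithelium counts of 8, 2 and 7 for Cd86 and 4, 0 and 2 for Pdcd1lg2.

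With the replicate block, the Icosl difference between SI tuft and SI epithelium was log2 -0.71 (edgeR adjusted p = 0.0823) and lost its call; no other ligand call changed. Same-numbered libraries did not deviate together (0 of 8 pairs had r above 0.1, from -0.0445 to 0.0746), so the numbers were not taken as pairs. DESeq2 size factors moved the median of all genes by 0.24 on the log2 scale in the comparison of tuft cells and by 0.23 in that of thymic tuft with SI epithelium, and upper quartile scaling by 0.12 in the former.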
